A study of Mus musculus with 12 samples.

Results

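IFN-beta induced FoxA1Treg arrays were compared with neuron induced FoxA1Treg arrays, gene by gene. FoxA1Treg is the name the study gives to regulatory T cells that it ties to the forkhead transcription factor FoxA1. The comparison uses 6 of the 12 arrays of the series, those whose titles name these groups, with 3 arrays in each. The cell type field calls the neuron induced group natural FoxA1Treg and the IFN-beta induced group induced FoxA1Treg. The mice of both groups were C57BL/10.RIII, a strain in which experimental autoimmune encephalomyelitis, a model of multiple sclerosis, can be induced. Both carry the surface labels CD4hi and PD-L1hi, so the labels separate them by what induced the cells and by the words natural and induced. How the neurons or IFN-beta were applied, for how long, at what dose, and the age and sex of the mice are not stated in the labels. The other 6 arrays, of encephalitogenic T cells and Treg, served only as a reference for a few probe sets and in an alternative that normalized and fitted all 12 arrays. Each array is an Affymetrix Mouse430_2 array hybridised with biotin-labelled cRNA made from total RNA by 3′ one-cycle amplification.

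Interferon beta is a type I interferon. It binds a receptor made of Ifnar1 and Ifnar2, whose kinases Jak1 and Tyk2 start a signal that ends at the interferon-stimulated response element (ISRE) in promoters of antiviral genes. PD-L1, encoded by Cd274, is a ligand of the inhibitory receptor PD-1, encoded by Pdcd1, and is itself inducible by interferons. Regulatory T cells restrain other T cells through receptors such as CTLA-4 and through mediators such as IL-10 and TGF-beta1, and most of those described are specified by the forkhead factor Foxp3.

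Levels are given as normalized log2(signal + 16), where the signal is the antilog of the deposited log2 value. A signal of 0 has the level 4 on this scale, so values at or just above 4 have no order among themselves, and a fold change from such a level understates the change in signal. Differences are IFN-beta induced minus neuron induced, on the same log2 scale, with a standard error (SE) and an adjusted p from limma with Benjamini-Hochberg adjustment over all 12721 genes tested. A gene is called at an adjusted p under 0.05. Nothing in the labels says that the 3 arrays of a group came from separate animals or cultures, so each p-value is set against the spread among these samples alone, which may be technical. With 3 arrays against 3, an exact two-sided permutation test of a single gene could not go below p = 0.1, and the number of arrays limits the precision of every value. Pearson correlations over the probe sets, which are not independent of each other, on the log2(signal + 16) scale were 0.9926 to 0.9933 within the IFN-beta induced arrays, 0.9929 to 0.9951 within the neuron induced arrays and 0.8608 to 0.8692 between the groups. On the deposited log2 scale, where dim probe sets weigh more, they were 0.846 to 0.8571, 0.831 to 0.8354 and 0.6834 to 0.7195. Array medians of the deposited log2 values spanned 4.64 to 4.82. The brightest probe set reached 15.61 to 15.66 in the IFN-beta induced arrays and 13.77 to 13.85 in the neuron induced arrays.

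The surface labels were checked first. Cd4, the coreceptor that both groups are labelled to carry at a high level, was at 10.48, 10.48 and 10.37 in the neuron induced arrays and at 5.16, 5.11 and 5.05 in the IFN-beta induced arrays. The groups lay far apart, and the difference of -5.34 (SE 0.062, adjusted p = 4.54e-13, limma) is a 40.4-fold lower level in the IFN-beta induced arrays. This low transcript level goes against the CD4hi label, which names a surface protein that the arrays do not measure. Each direction below is therefore a direction for the arrays labelled IFN-beta induced FoxA1Treg and not for a CD4 T cell type. Cd274 was at 7.54, 7.45 and 7.31 in the neuron induced arrays and at 10.06, 9.98 and 10.02 in the IFN-beta induced arrays, a 5.99-fold higher level (SE of the log2 difference 0.063, adjusted p = 8.10e-11). All 3 IFN-beta induced arrays lay above all 3 neuron induced arrays, while both groups carry the label PD-L1hi. Foxa1 itself did not pass the filter on low values. Its levels were 4.31, 4.40 and 4.44 in the neuron induced arrays and 4.26, 4.03 and 4.35 in the others, and without the filter the difference was -0.17 (SE 0.11, adjusted p = 0.198). The transcript of the gene that names both populations was thus near the floor of the scale in all 6 arrays, and its probe set gave no call. Foxp3 was at 4.80, 4.37 and 4.27 against 5.59, 5.83 and 5.70, a difference of 1.23 (SE 0.15, adjusted p = 2.43e-05). Foxp3 stood low in both groups and passed the filter on its mean only just, at a filter level of 5.08.

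Cd47, a ligand that signals to phagocytes through Sirpa, was at 11.82, 11.82 and 11.71 in the neuron induced arrays and at 11.61, 11.70 and 11.68 in the IFN-beta induced arrays. The groups lay close together, with a difference of -0.12 and a 95% confidence interval of -0.23 to -0.02 (adjusted p = 0.0307). Of its 4 other probe sets past the filter 3 were called in the opposite direction, and the mean of its probe sets was higher by 0.32. Its call was also lost without neuron induced replicate 1 or 2 (-0.10 for both) and without IFN-beta induced replicate 1 or 3 (-0.098 and -0.14), so no direction is given for Cd47. The inhibitory receptor Pdcd1 fell by 3.51, from 9.63, 9.59 and 9.84 to 6.13, 6.32 and 6.08 (SE 0.086, adjusted p = 8.15e-11). Ctla4 fell by 3.13, from 10.88, 10.73 and 10.85 to 7.70, 7.67 and 7.71 (SE 0.051, adjusted p = 4.27e-12). Tgfb1, which encodes TGF-beta1, was at 9.88, 9.88 and 9.98 in the neuron induced arrays and at 6.29, 6.34 and 6.20 in the IFN-beta induced arrays, lower by a factor of 12.4. For all 3 genes the arrays of one group stood several log2 units away from those of the other. Il2ra, the high-affinity chain of the IL-2 receptor, fell by 2.50 (adjusted p = 1.12e-09), and the Th1 cytokine gene Ifng fell by 2.09 (adjusted p = 1.52e-08).

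Il10, the gene of an anti-inflammatory cytokine, was at 5.94, 5.78 and 7.13 in the neuron induced arrays and at 8.49, 8.39 and 8.47 in the IFN-beta induced arrays. Its level rose by 2.17 (SE 0.28, adjusted p = 4.15e-05) without overlap, though neuron induced replicate 3 stood more than a log2 unit above the other two. Il17a, the signature cytokine gene of Th17 cells, was at 6.58, 6.68 and 7.91 and at 6.99, 6.34 and 7.09. The groups overlapped, with a difference of -0.25 and a confidence interval of -0.96 to 0.46 (adjusted p = 0.488), so a moderate difference in either direction lies inside the interval. Among the regulatory genes described so far, Cd274, Foxp3 and Il10 stood higher and Pdcd1, Ctla4, Il2ra and Tgfb1 lower in the IFN-beta induced arrays.

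**Figure D1:**
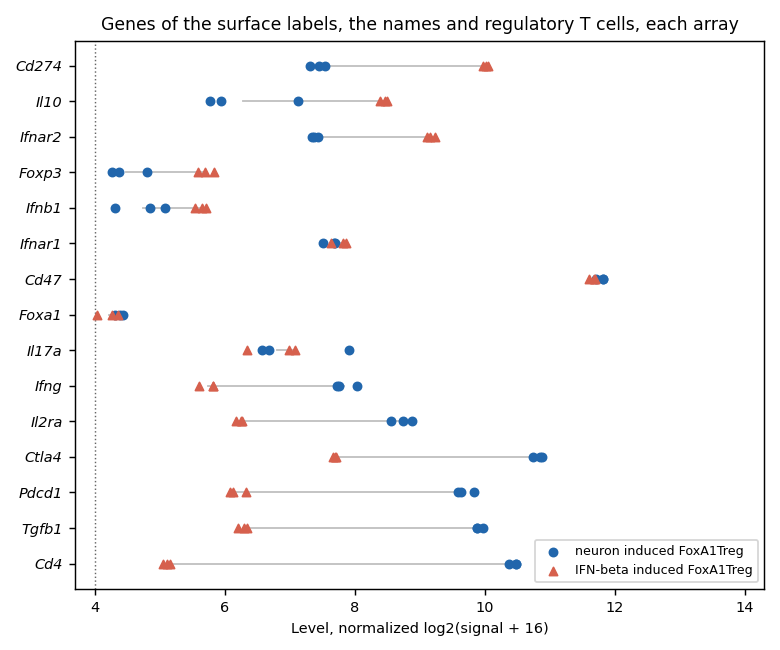
Each point is 1 array, placed at its level of normalized log2(signal + 16), for 15 genes: blue circles are the 3 neuron induced and red triangles the 3 IFN-beta induced FoxA1Treg arrays, grey lines join the group means, and the dotted line is the floor at 4. Cd4, Tgfb1, Pdcd1, Ctla4, Il2ra and Ifng lie lower and Cd274, Il10 and Ifnar2 higher in the IFN-beta induced arrays, while Foxa1 lies near the floor in all 6.

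Of the 12721 genes tested, 9679 were called. In the IFN-beta induced arrays 4944 genes (38.9%) stood higher and 4735 (37.2%) lower. At least a 2-fold difference was found for 1512 higher genes (11.9%) and 1405 lower genes (11%). The sizes were uneven between the directions: 399 genes stood at least 8-fold higher and 71 at least 8-fold lower, and at 32-fold the counts were 132 and 4. The values of the 3 and 3 arrays did not overlap for 9989 genes (78.5%). The median difference over all genes was 0.031. With no normalization between arrays the median of all genes moved by -0.12, and the share of called genes that stood higher went from 51.1% to 42.2%. With that scaling 1308 genes were at least 2-fold higher and 1718 at least 2-fold lower, so which direction held more genes rests on the scaling.

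Among the 15 largest rises, S100a8 came first. It encodes a subunit of calprotectin, a calcium-binding protein complex abundant in neutrophils. The gene was at 4.13, 4.0 and 4.18 in the neuron induced arrays and at 13.58, 13.50 and 13.51 in the IFN-beta induced arrays, from the floor to near the top of the scale (difference 9.43, SE 0.058, adjusted p = 1.46e-14). Its partner S100a9 moved alike, from 4.0, 4.0 and 4.34 to 13.43, 13.45 and 13.44. Slpi, a secreted inhibitor of leukocyte proteases, rose by 8.67, and Wfdc21, a small protein of the same whey acidic protein fold, by 9.13. Quantile normalization gives the brightest probe sets of all arrays the same values, so Slpi and Wfdc21 show no spread at the top of this scale. In the deposited log2 values Slpi was at 15.61, 15.61 and 15.66 in the IFN-beta induced arrays against 5.65, 5.85 and 5.77 in the neuron induced arrays. The chemokine genes Ccl8 (8.84) and Ccl12 (8.82), both attractants of monocytes, followed, with the platelet chemokine gene Pf4 (8.28), the lysozyme genes Lyz2 (8.16) and Lyz1 (8.06), and the scavenger receptor gene Msr1 (8.09). The immunoglobulin genes Igha (7.88) and Iglv1 (7.86), the plasma cell chaperone gene Mzb1 (8.08), the B cell receptor subunit gene Cd79b (7.95) and the neutrophil granule gene Ngp (7.84) completed the 15 largest rises. Lyz1 and Lyz2 are near-identical copies, and their probe sets may share signal.

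The largest fall was that of Xist, the RNA that silences an X chromosome in female cells. It was at 11.80, 11.34 and 11.32 in the neuron induced arrays and at 4.23, 4.25 and 4.60 in the IFN-beta induced arrays, near the floor (difference -7.12, SE 0.14, adjusted p = 1.27e-11). The Y-linked gene Eif2s3y was at 4.0, 4.24 and 4.32 and at 9.79, 9.66 and 9.54, and the Y-linked genes Uty (3.40) and Kdm5d (3.18) rose as well. The neuron induced arrays thus carried the transcripts of female and the IFN-beta induced arrays those of male cells, and sex and induction cannot be told apart in any value of this comparison. After Cd4 the falls went on with Sytl2 (5.15), a vesicle trafficking protein of cytotoxic granules, and Tox2 (5.14), an HMG-box factor of activated T cells. Tox2 was at 10.57, 10.50 and 10.21 against 5.23, 5.54 and 5.08. Msc, a repressor of the basic helix-loop-helix class, fell by 4.98, and Penk, the precursor of the enkephalin peptides, by 4.93, from 10.80, 10.79 and 11.64 to 6.25, 6.14 and 6.04. Pparg, a nuclear receptor of lipid metabolism and of tissue regulatory T cells, fell by 4.59, and S100a4, a calcium-binding protein of memory T cells, by 4.39. The remaining large falls were Ermn (4.97), Crmp1 (4.59), the annexin gene Anxa6 (4.58), the metallothionein gene Mt3 (4.56), B4galnt4 (4.13), Igfbp7 (4.13) and Mlf1 (4.12). Crmp1, Ermn and Mt3 are best known from the nervous system, and their levels were 8.64 to 9.33 in the neuron induced arrays and 4.0 to 4.63 in the IFN-beta induced arrays.

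**Figure D2:**
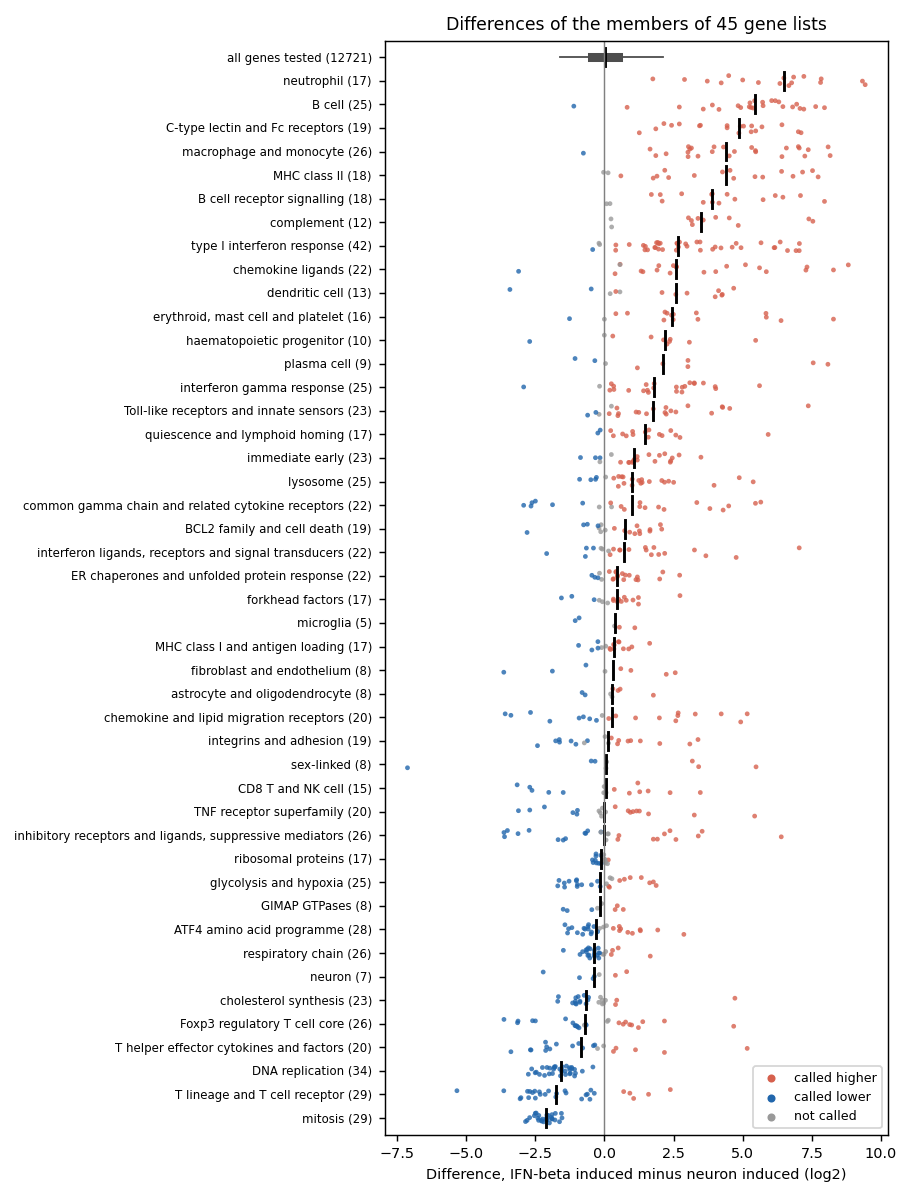
Each point is the difference of 1 gene (IFN-beta induced minus neuron induced, log2) for the tested members of 45 gene lists, coloured by call, with the list median as a black bar and the number of members tested in brackets. The top line shows all 12721 genes, with the median, the middle 50% as a thick bar and the 5th to 95th percentile as a thin line. The neutrophil (median 6.48) and B cell (5.43) lists lie at one end and the mitosis list (-2.10) at the other.

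Marker genes of cell types were described by counts and medians, beside the shares called over all genes (38.9% higher, 37.2% lower). A gene low in 1 group could pass the filter through the other, so the counts are a description of the members that passed. In these bulk samples fewer cells of a type and less RNA per cell cannot be told apart. Of 29 T lineage genes 24 fell and 5 rose, with a median of -1.76. Cd3e, a signalling chain of the T cell receptor complex, was at 10.62, 10.61 and 10.54 in the neuron induced arrays and at 7.81, 7.90 and 7.95 in the others, so its transcript was lower by 2.70 but remained well above the floor. Thy1, a surface glycoprotein of T cells, fell by 3.64, Themis, a regulator of T cell selection, by 3.02, and Ubash3a, a phosphatase that dampens T cell receptor signals, by 3.05. The 5 that rose included the naive T cell factor Lef1 (0.92), the kinase gene Txk (2.38) and the costimulatory receptor gene Cd27 (1.59). The summed signal of the list was 11840 to 12030 in the IFN-beta induced arrays and 37570 to 38370 in the neuron induced arrays.

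Of 25 B cell genes 24 rose and 1 fell, with a median of 5.43, and without the offset 21 of 23 rose and 2 fell. Cd79b was at 4.0, 4.08 and 4.63 in the neuron induced arrays and at 12.14, 12.19 and 12.24 in the IFN-beta induced arrays. Ms4a1, which encodes CD20, went from 4.39, 4.33 and 5.12 to 12.23, 12.26 and 12.27, and Cd22, an inhibitory receptor of B cells, rose by 7.07. In the neuron induced arrays these defining markers lay at or little above the floor. The summed signal of the list was 61090 to 65470 against 1227 to 1350. Cd37, a tetraspanin that T cells share, was the member that fell (1.11), and its other probe set was called in the opposite direction. Of 9 plasma cell genes 6 rose and 2 fell: Jchain, the joining chain of secreted antibodies, was at 4.59, 4.17 and 4.47 against 11.98, 11.94 and 11.95, whereas Prdm1, a factor that effector T cells use too, fell by 1.06. Of 17 neutrophil genes all 17 rose, with a median of 6.48. Without the offset 10 of them passed the filter, and all 10 rose. Their summed signal was 67610 to 67850 in the IFN-beta induced arrays and 270.0 to 343.6 in the neuron induced arrays. Csf3r, the receptor of granulocyte colony-stimulating factor, was at the floor of 4.0 in all 3 neuron induced arrays and at 8.43, 8.44 and 8.60 in the IFN-beta induced arrays, and Chil3, a chitinase-like protein of neutrophils and macrophages, was at 4.0 in the same 3 arrays and rose by 7.81.

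Of 26 macrophage and monocyte genes 25 rose and 1 fell, with a median of 4.41, and without the offset 19 of 21 rose and 1 fell. Adgre1, which encodes the macrophage antigen F4/80, was at 5.48, 5.46 and 5.53 in the neuron induced arrays and at 12.10, 12.08 and 12.02 in the IFN-beta induced arrays. Csf1r, the receptor for macrophage colony-stimulating factor, was at 4.16, 4.92 and 4.55 and at 9.89, 10.07 and 10.04. Tyrobp, an adaptor of activating myeloid receptors, rose by 7.24 and Ly86, a partner of a Toll-like receptor family member, by 7.37. The group means lay more than 5 log2 units apart for each of these genes. Ccr2, a chemokine receptor of monocytes that effector T cells also carry, was the single fall (0.76). The rise of the member Vcam1 was not called without the offset or without single IFN-beta induced arrays. Of 13 dendritic cell genes 9 rose and 2 fell, with a median of 2.58. Without the offset 7 of 11 rose and 2 fell, with a median of 1.09. Cd83 (4.67) and Cd86 (4.26), surface proteins of antigen-presenting cells, rose, while Batf3, a factor of cross-presenting dendritic cells and of activated T cells, fell by 3.42. The dendritic cell factor Zbtb46 was at 5.36, 4.96 and 5.34 against 5.37, 5.37 and 5.53, and its difference of 0.21 was not called (adjusted p = 0.168).

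Of 16 genes of erythroid cells, mast cells and platelets 14 rose and 1 fell. Hbb-b2, a beta globin whose near-identical copies may share its signal, rose by 5.84, the platelet chemokine gene Ppbp by 5.85 and the mast cell protease gene Cpa3 by 2.48. The transferrin receptor gene Tfrc, which dividing lymphocytes express strongly, fell by 1.26. Of 10 haematopoietic progenitor genes 8 rose, among them Lmo2 (5.47), a factor of blood stem cells, Kit (2.26) and Cd34 (2.14), and 1 fell, the factor Hlf (2.70), while without the offset 5 of 7 rose and 1 fell. In the CD8 T and NK cell list 7 of 15 rose and 5 fell. Cd8a, a chain of the CD8 coreceptor, was at 4.07, 4.07 and 4.31 in the neuron induced arrays and at 7.59, 7.66 and 7.60 in the IFN-beta induced arrays. Without any single IFN-beta induced array its difference was 0.67 to 0.84 in place of 3.46, with the brightest probe set chosen again in each case. By contrast, the cytotoxic granule genes Gzma (3.16) and Nkg7 (2.70) fell. Lists of cells outside the blood gave mixed counts: 2 rose and 4 fell of 7 neuron genes, 4 rose and 2 fell of 8 astrocyte and oligodendrocyte genes, 2 rose and 2 fell of 5 microglia genes, and 4 rose and 3 fell of 8 genes of fibroblasts and endothelium. Gap43, a growth-cone protein of neurons, fell by 2.22, from 6.27, 6.28 and 6.46 to 4.0, 4.17 and 4.19, while the neuron-specific factor Rbfox3 fell by 0.37, and 9 of the 16 neuron genes on the array did not pass the filter. The summed signal of the neuron list was 177.7 to 195.7 in the IFN-beta induced arrays and 261.4 to 312.8 in the neuron induced arrays. The marker lists of B cells, macrophages and neutrophils moved with the groups in every result below, and their part in those results was not tested.

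Ligands, receptors and signal transducers of the interferons showed 15 rises and 4 falls among 22 genes, with a median of 0.72. The counts of this and every later list stand beside 38.9% of all genes called higher and 37.2% called lower. As for the marker lists, a member low in 1 group could pass the filter through the other. Ifnb1, the interferon beta gene itself, was at 5.08, 4.31 and 4.85 in the neuron induced arrays and at 5.71, 5.54 and 5.65 in the IFN-beta induced arrays, low in both groups but without overlap (difference 0.88, SE 0.18, adjusted p = 0.000986). The receptor chain gene Ifnar1 was at 7.68, 7.69 and 7.51 and at 7.64, 7.86 and 7.83. Its groups overlapped, and the confidence interval of the difference, -0.03 to 0.32, lay within a 1.41-fold change either way. Without IFN-beta induced replicate 1 the difference was 0.21 and was called. The other chain, Ifnar2, rose by 1.79, from 7.35, 7.44 and 7.37 to 9.11, 9.16 and 9.24 (SE 0.057, adjusted p = 5.92e-10). Irf7, the factor that amplifies interferon production, rose by 4.76, and Ifngr2, a chain of the interferon gamma receptor, by 3.25. The feedback inhibitors moved the same way: Usp18, which binds Ifnar2 and blocks further signals, was at 4.37, 4.86 and 4.36 against 11.51, 11.59 and 11.61, and Socs3, an inhibitor of cytokine receptor kinases, rose by 3.67. The falls were Ifng, the kinase gene Tyk2 (0.69), the T cell phosphatase gene Ptpn2 (0.65) and Stat4 (0.40), which transmits IL-12 and type I interferon signals in T cells.

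The type I interferon response list held 42 tested genes, of which 39 rose, 1 fell and 2 were not called, with a median of 2.65 beside 0.031 over all genes. At least a 2-fold rise was found for 36 of them, beside 11.9% of all genes. Ifit3, an RNA-binding antiviral protein, was at 4.48, 4.45 and 4.69 in the neuron induced arrays and at 11.52, 11.60 and 11.63 in the IFN-beta induced arrays (difference 7.05, SE 0.074, adjusted p = 2.23e-13). Its neighbour Ifit1 was at 4.65, 4.66 and 4.48 and at 10.70, 10.82 and 10.76, and Rsad2, which encodes the antiviral enzyme viperin, at 5.32, 5.05 and 5.04 and at 11.66, 11.77 and 11.84. The groups lay about 6 to 7 log2 units apart for these 3 genes, with an SD of at most 0.16 between arrays of a group. Oasl1, a member of the oligoadenylate synthetase family, rose by 6.93. Lgals3bp, a secreted galectin ligand, was the single member that fell (0.43). The 2 genes not called were Ifi203 and Ly6e (named after their values were seen), and another probe set of Ly6e was higher by 2.79 (adjusted p = 4.71e-10, limma over probe sets). With no normalization 39 rose and 3 fell. The summed signal of the list was 80780 to 82990 in the IFN-beta induced arrays and 16370 to 18020 in the neuron induced arrays.

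**Figure D3:**
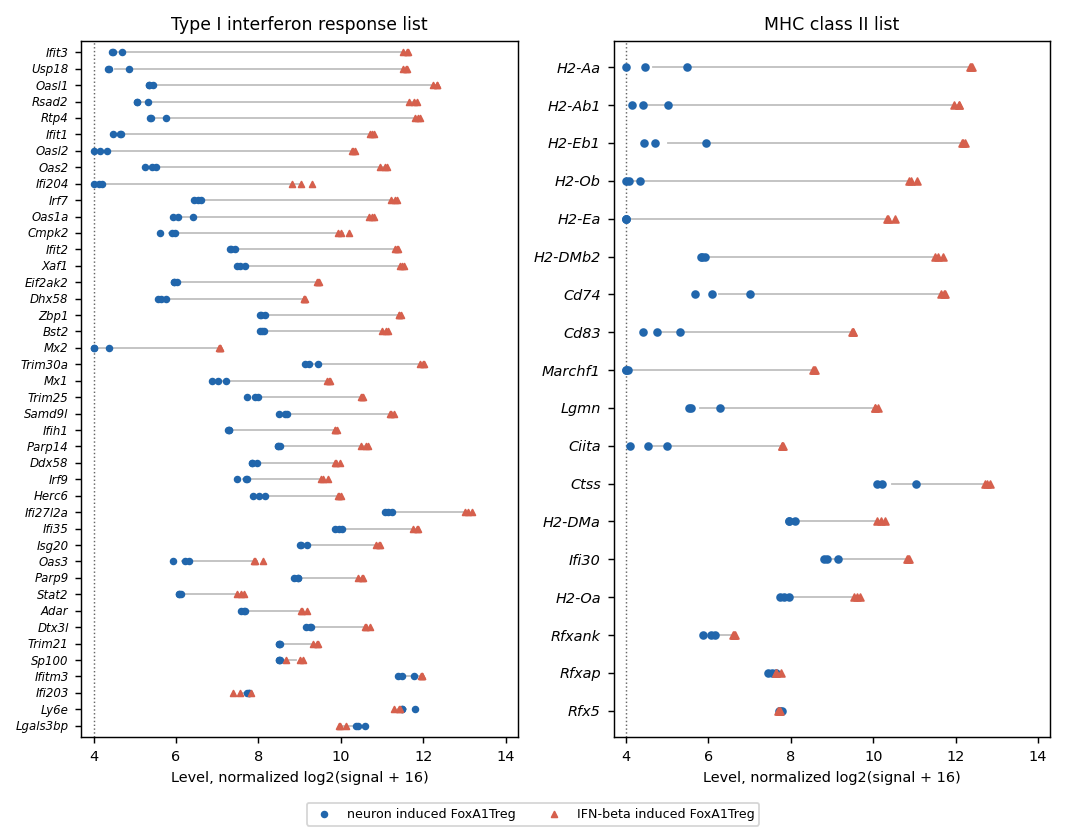
Each point is 1 array, placed at its level of normalized log2(signal + 16), for the 42 tested genes of the type I interferon response list (left) and the 18 of the MHC class II list (right), ordered by difference: blue circles are neuron induced and red triangles IFN-beta induced FoxA1Treg arrays, grey lines join the group means and the dotted line is the floor at 4. Of the interferon genes 39 and of the MHC class II genes 16 were called higher in the IFN-beta induced arrays, and Rfx5, Rfxap, Ifi203 and the brightest probe set of Ly6e were not called.

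Promoters of members of this list were searched for 2 copies of GAAA that stand 2 bases apart (GAAANNGAAA, the core of the ISRE) on either strand, in windows of 250 bases before to 50 bases after each gene start, taken from RefSeq on GRCm38.p6. That reference is of the C57BL/6J strain and not of C57BL/10.RIII. The motif was present in 14 of 30 promoters of the type I interferon response list (46.7%), in 3.44% of all 32851 promoters of the same length, in 8.46% of 1182 promoters of genes called at least 2-fold higher, in 3.32% of 1113 promoters of genes called at least 2-fold lower and in 3.07% of 2445 promoters of genes not called. A match describes the letters and is neither a bound site nor a cause. The promoters of Ifit3, Rsad2 and Ifit1 are shown because these genes had the largest differences among the members with a match. Ifit3 has a near-identical neighbour, so its probe sets may share signal with that copy. The motif is in capitals, and here it lies on the strand opposite to the gene, so that it reads TTTCNNTTTC.
Ifit3, chr19:34583279-34583578, plus strand: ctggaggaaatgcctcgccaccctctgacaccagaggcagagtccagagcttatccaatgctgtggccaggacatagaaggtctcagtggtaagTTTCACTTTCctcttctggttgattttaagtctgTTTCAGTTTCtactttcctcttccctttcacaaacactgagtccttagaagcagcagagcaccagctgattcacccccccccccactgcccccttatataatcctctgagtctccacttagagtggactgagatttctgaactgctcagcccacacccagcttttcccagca
Rsad2, chr12:26456403-26456702, minus strand: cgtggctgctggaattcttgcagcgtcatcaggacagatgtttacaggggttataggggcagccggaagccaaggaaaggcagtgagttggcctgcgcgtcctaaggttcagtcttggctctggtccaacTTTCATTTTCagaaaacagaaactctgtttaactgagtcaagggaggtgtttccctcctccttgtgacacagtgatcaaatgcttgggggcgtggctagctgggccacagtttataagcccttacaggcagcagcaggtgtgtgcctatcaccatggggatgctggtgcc
Ifit1, chr19:34640639-34640938, plus strand: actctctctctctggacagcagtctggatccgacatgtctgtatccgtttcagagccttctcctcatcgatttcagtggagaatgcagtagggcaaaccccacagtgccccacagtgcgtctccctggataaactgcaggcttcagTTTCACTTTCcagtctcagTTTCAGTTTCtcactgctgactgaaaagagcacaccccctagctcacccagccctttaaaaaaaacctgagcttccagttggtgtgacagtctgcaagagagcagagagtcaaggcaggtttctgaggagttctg
Ifit3 and Ifit1 hold 2 matches each and Rsad2 1. The match nearest to the gene start ends 112 bases before it in Ifit3, 110 in Rsad2 and 75 in Ifit1.

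The interferon gamma response list held 25 genes, of which 23 rose and 1 fell, with a median of 1.80, and with no normalization 22 rose and 2 fell. Irf1, a factor that interferon gamma induces at once, was at 9.47, 9.42 and 9.44 in the neuron induced arrays and at 11.16, 11.26 and 11.30 in the IFN-beta induced arrays (difference 1.80, adjusted p = 1.22e-10). Gbp2, a guanylate-binding protein that attacks intracellular pathogens, rose by 2.60, and Iigp1, an immunity-related GTPase, by 3.58. Cxcl10, a chemokine that attracts Cxcr3-bearing T cells, was at 4.78, 5.58 and 5.62 against 11.04, 10.92 and 10.84, and Cxcl11, a ligand of the same receptor, rose by 4.02. Ifng itself fell, as given above, and so did the IL-12 receptor gene Il12rb1 (2.92), the fall on this list. The motif GAAANNGAAA was present in 8 of 18 promoters of this list (44.4%). Many of its genes respond to type I interferon as well, and the lists do not separate the interferons.

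MHC class II presents peptides from outside the cell to CD4 T cells. Of 18 genes of the pathway 16 rose and 0 fell, with a median of 4.40, and with no normalization 1 fell. H2-Aa, an alpha chain, was at 4.0, 4.46 and 5.49 in the neuron induced arrays and at 12.40, 12.35 and 12.38 in the IFN-beta induced arrays (difference 7.73, SE 0.28, adjusted p = 1.93e-09). Its partner H2-Ab1 was at 4.41, 4.14 and 5.01 and at 11.97, 12.08 and 12.08, and the invariant chain gene Cd74 at 5.67, 6.09 and 7.02 and at 11.64, 11.74 and 11.71. In each of these genes neuron induced replicate 3 stood above the other two, yet far below every IFN-beta induced array. H2-Ob, a chain of a class II molecule that modulates peptide loading in B cells, rose by 6.82. Ciita, the master coactivator of the pathway, rose by 3.25, from 4.54, 4.10 and 5.0 to 7.79, 7.80 and 7.80. The 2 genes not called, Rfx5 and Rfxap (named after their values were seen), encode subunits of the DNA-binding complex that recruits Ciita. The summed signal of the list was 37110 to 37430 against 2484 to 3912. Transcripts of MHC class I and antigen loading genes differed far less, with a median of 0.33. Of 17 genes 11 rose (64.7%) and 4 fell (23.5%), beside 38.9% and 37.2% of all genes. For 9 of the 17 the confidence interval lay within 0.5 either way. H2-K1 was at 12.88, 12.90 and 12.79 against 12.76, 12.97 and 12.97 with overlap (confidence interval -0.09 to 0.18). B2m, the common light chain of MHC class I, differed by 0.22 (adjusted p = 0.0164, limma), a call lost without neuron induced replicate 1 or 2 (0.19 and 0.20), and the difference was 0.14 without IFN-beta induced replicate 1. Tapbpl, a peptide editor, rose by 1.63, and Psmb10, a subunit of the immunoproteasome, by 0.88. H2-D1, a classical heavy chain, differed by -0.24, with 4 of its 8 other probe sets called in the opposite direction. H2 genes resemble each other and differ between haplotypes, so their probe sets may share signal, and the strain's haplotype may bind the probes differently from the reference.

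The Y box of MHC class II promoters was searched as CTGATTGG on either strand, in the same windows. Its core is a reversed CCAAT box, which promoters of other gene classes also hold. The motif was present in 3 of 12 promoters of the MHC class II list (25%) and in 4.1% of all promoters. Among genes called at least 2-fold higher the share was 5.25%, and among those called at least 2-fold lower 8.63%. It was 6.26% over all genes tested and 5.52% over genes not called. The interferon gamma response list held the motif in 5 of 18 promoters (27.8%), so it was not particular to the MHC class II list. The promoters of H2-Aa and H2-Eb1, a beta chain that rose by 7.16, are shown with the motif in capitals, since they pair the largest differences of the list with a match.
H2-Aa, chr17:34287774-34288073, minus strand: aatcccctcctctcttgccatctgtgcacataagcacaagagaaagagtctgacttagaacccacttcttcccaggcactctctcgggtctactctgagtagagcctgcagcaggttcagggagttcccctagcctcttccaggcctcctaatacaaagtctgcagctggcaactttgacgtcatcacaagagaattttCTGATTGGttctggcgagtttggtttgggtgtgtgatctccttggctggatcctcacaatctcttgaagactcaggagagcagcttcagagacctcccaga
H2-Eb1, chr17:34305617-34305916, plus strand: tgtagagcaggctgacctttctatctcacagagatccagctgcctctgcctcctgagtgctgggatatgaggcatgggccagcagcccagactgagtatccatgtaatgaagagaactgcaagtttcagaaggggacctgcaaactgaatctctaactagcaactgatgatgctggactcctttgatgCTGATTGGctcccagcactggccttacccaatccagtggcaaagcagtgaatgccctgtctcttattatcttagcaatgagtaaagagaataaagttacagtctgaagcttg
The match ends 43 bases before the gene start in H2-Aa and 54 bases before it in H2-Eb1.

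Genes of the Foxp3 regulatory T cell core were split: 9 of 26 rose (34.6%) and 14 fell (53.8%), with a median of -0.70. Over all genes 38.9% were called higher and 37.2% lower. Beside Ctla4, Il2ra and Tgfb1, the falls included Socs2, an inhibitor of cytokine signalling, by 3.14, and the costimulatory receptor gene Icos by 2.60, from 10.52, 10.63 and 10.94 to 8.11, 8.14 and 8.04. Beside Foxp3 and Il10, the rises included Ecm1 (1.38), a secreted matrix protein, and Cd83, which B cells and dendritic cells express too. Inhibitory receptors, ligands and suppressive mediators were split as well, with 10 rises and 12 falls of 26. These shares, 38.5% and 46.2%, are not far from those over all genes. Sirpa, the receptor of Cd47 on phagocytes, was at 5.33, 5.60 and 5.47 in the neuron induced arrays and at 11.80, 11.87 and 11.91 in the IFN-beta induced arrays. Btla, an inhibitory receptor of B and T cells, rose by 3.39, and Arg1, which depletes arginine, by 3.53. Lgals1, a galectin that promotes T cell death, had deposited log2 values of 13.84, 13.85 and 13.77 in the neuron induced arrays and of 10.99, 11.15 and 11.05 in the IFN-beta induced arrays, and it fell by 3.61 on the normalized scale. Those neuron induced values span the range of the brightest probe set in these arrays, 13.77 to 13.85. Quantile normalization raised them to values shared by the brightest probe sets of all arrays. The fall of 3.61 is therefore larger than the gap in the deposited values. Pdcd1lg2, which encodes PD-L2, the other ligand of PD-1, fell by 0.71, in the direction opposite to Cd274.

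Among T helper effector cytokines and factors 5 of 20 rose and 13 fell, with a median of -0.86. Cxcr6, a chemokine receptor of tissue effector T cells, was at 11.86, 11.95 and 11.82 in the neuron induced arrays and at 8.42, 8.54 and 8.51 in the IFN-beta induced arrays. Rora, a factor of Th17 cells, fell by 2.68, Il12rb2, a chain of the IL-12 receptor, by 2.66, and Il18rap, a chain of the IL-18 receptor, by 2.13. The rises were led by Ccr6 (5.16), a chemokine receptor that B cells and Th17 cells share, which was at the floor of 4.0 in all 3 neuron induced arrays, and held Csf2 (1.12), the cytokine gene tied to pathogenic T cells in encephalomyelitis. Csf2 was low in both groups, at 4.56, 4.91 and 5.15 against 6.11, 5.97 and 5.90.

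Of 23 Toll-like receptors and innate sensors 19 rose and 2 fell (median 1.76), of 19 C-type lectin and Fc receptors all 19 rose (median 4.86), and of 12 complement genes 10 rose and 0 fell (median 3.48). Members near the floor in the neuron induced arrays could pass the filter only through the IFN-beta induced arrays. For such members a rise was largely set by the filter, so these counts only describe the members that passed. Tlr7, a sensor of single-stranded RNA, was at 4.0, 4.0 and 4.32 in the neuron induced arrays and at 8.70, 8.60 and 8.60 in the IFN-beta induced arrays. Tlr2 (2.58) and Tlr4 (2.40), sensors of bacterial surface molecules, rose, while Sting1, an adaptor of DNA sensing, fell by 0.61. The adaptor gene Myd88 differed by 0.17, a call lost without IFN-beta induced replicate 3 (0.13) and without normalization (0.038). Tlr3, a sensor of double-stranded RNA, differed by -0.31, and its other probe set was called in the opposite direction. Fcgr1, the high-affinity receptor for IgG, went from 5.08, 5.10 and 5.24 to 12.06, 12.23 and 12.16, and Clec4d, a lectin of myeloid cells, from near the floor to 11.22, 11.20 and 11.22. Cfb, a protease of the alternative complement pathway, was at 5.98, 5.97 and 5.98 against 13.31, 13.48 and 13.30, and C3ar1, a receptor for a complement fragment, rose by 7.53. Without the offset 14 C-type lectin and Fc receptor genes passed the filter, and all 14 rose. Of complement genes 9 then passed, of which 6 rose. The C-type lectin and Fc receptor list summed to 189.9 to 206.4 in the neuron induced arrays and to 17940 to 18670 in the IFN-beta induced arrays.

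Chemokine ligands rose in 20 of 22 cases and fell in 1, with a median of 2.60. Ccl2, an attractant of monocytes, was at 5.76, 5.65 and 5.56 in the neuron induced arrays and at 13.07, 12.91 and 12.84 in the IFN-beta induced arrays. Ccl5, which activated T cells also make, rose by 2.60, and Ccl3 and Ccl4 by 1.32 and 1.39. Ccl1, a T cell product that attracts Ccr8-bearing cells, was the single fall (3.11), and Ccr8 itself fell by 3.59. Chemokine and lipid receptors were split, with 11 rises and 8 falls of 20 (55% and 40%). Over all genes 38.9% were called higher and 37.2% lower. The homing receptors Ccr7 (2.58) and S1pr1 (1.99) and the follicle-homing receptor Cxcr5 (4.93) rose, the effector receptors Cxcr3 (1.98) and Ltb4r1 (2.67) fell, and Cxcr4 was at 8.67, 8.57 and 8.86 against 8.65, 8.62 and 8.58 with overlap. Integrins gave 9 rises and 7 falls of 19 (47.4% and 36.8%), not far from the shares over all genes. Itgb7, which pairs with gut-homing alpha chains, fell by 2.42, and Itgal by 1.77, while Itgam, the myeloid alpha chain, rose by 3.38. Of 22 cytokine receptors 14 rose and 6 fell, with Csf2rb (5.65), the common chain of the GM-CSF and IL-3 receptors, and Il6ra (4.29) among the rises and Il2rb (2.62) among the falls. In the TNF receptor superfamily, 9 of 20 rose and 6 fell (45% and 30%), also not far from the shares over all genes. The B cell survival receptor gene Tnfrsf13c rose by 5.43 and Cd40 by 3.25. The costimulatory receptor genes Tnfrsf18 (1.14), Tnfrsf4 (0.98) and Tnfrsf9 (1.0) fell, whereas Cd27, another of these, rose by 1.59. With no normalization 8 of the superfamily's genes rose and 9 fell, so its balance rests on the scaling.

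Signalling genes of the B cell receptor rose in 16 of 18 cases and fell in 0. Syk, the kinase next to that receptor, was at 4.66, 4.69 and 4.80 in the neuron induced arrays and at 11.89, 11.80 and 11.71 in the IFN-beta induced arrays, and Btk rose by 5.73. Immediate early genes rose in 18 of 23 cases and fell in 3 (median 1.07). Fos was at 7.11, 7.32 and 6.78 against 9.45, 9.44 and 9.46, Jun rose by 2.70, Egr1 by 1.99, and Zfp36, which destabilises cytokine messages, by 3.49, while Junb fell by 0.33. Genes of quiescence and lymphoid homing rose in 15 of 17 cases and fell in 2 (median 1.48). Klf2, a factor that keeps lymphocytes resting and recirculating, was at 4.98, 4.83 and 4.52 in the neuron induced arrays and at 10.61, 10.74 and 10.74 in the others, a difference of 5.92 (SE 0.11, adjusted p = 8.09e-12). The IL-7 receptor gene Il7r, by contrast, was high in both groups, at 10.45, 10.50 and 10.79 against 10.78, 10.78 and 10.87, and differed by 0.22, a call lost without neuron induced replicate 1 or 2 or IFN-beta induced replicate 3 (0.16, 0.18 and 0.19). Of 8 GIMAP GTPase genes, which support lymphocyte survival, 3 rose and 3 fell. Each count is 37.5%, near the shares of 38.9% higher and 37.2% lower over all genes. With no normalization between arrays 5 fell. Gimap4 was at 12.12, 12.10 and 11.69 against 11.51, 11.49 and 11.53.

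Forkhead factors were described as a family because the cells are named for one. Of 17 tested 11 rose and 3 fell. With no normalization 8 rose and 5 fell of 16, and with median centring or the mean of probe sets 5 fell as well. Foxp1, a factor of resting lymphocytes, was at 7.68, 7.63 and 7.61 in the neuron induced arrays and at 10.38, 10.35 and 10.37 in the IFN-beta induced arrays (difference 2.73). Foxo1 rose by 1.03 and Foxn3 by 1.23. Foxm1, which drives mitotic genes, fell by 1.56. The family's closest relative of Foxa1 on the list, Foxa2, did not pass the filter, at 4.47, 4.53 and 4.48 against 4.57, 4.36 and 4.66.

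Cell division genes fell without exception in both lists. All 34 DNA replication genes fell (median -1.57, range -2.75 to -0.42), and all 29 mitosis genes fell (median -2.10, range -2.86 to -1.54), beside 37.2% of all genes. At least a 2-fold fall was found for 32 of the 34 and for all 29, beside 11% of all genes. Pcna, the sliding clamp of DNA polymerases, was at 13.04, 13.01 and 12.89 in the neuron induced arrays and at 11.34, 11.42 and 11.42 in the IFN-beta induced arrays. Mki67, the proliferation antigen Ki-67, was at 11.59, 11.60 and 11.66 and at 9.57, 9.60 and 9.57, a 4.09-fold lower level (SE of the log2 difference 0.040, adjusted p = 1.66e-11). In neither gene did the groups come near each other, yet both stayed far above the floor in the IFN-beta induced arrays. Lig1, the ligase of replicating DNA, fell by 2.75, Tyms, which makes thymidylate, by 2.63 (0.91 without neuron induced replicate 2), Ccnb2, a mitotic cyclin, by 2.86, and Birc5, which encodes survivin, by 2.71. Both lists gave these counts in each of the 4 scalings and summaries tried, namely no normalization, median centring, no offset and the mean of probe sets. The CCAAT-type motif CTGATTGG was present in 5 of 23 mitosis promoters (21.7%), beside 4.1% of all promoters. It was present in 6.26% of the promoters of all genes tested and in 8.63% of those called at least 2-fold lower.

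**Figure D4:**
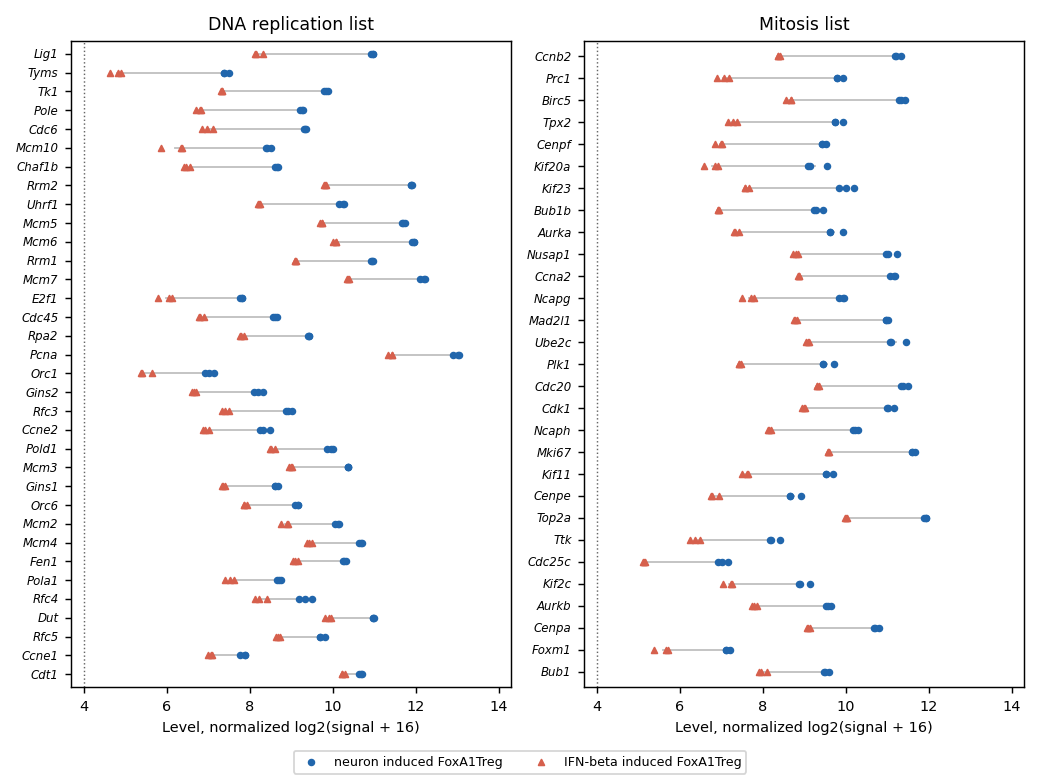
Each point is 1 array, placed at its level of normalized log2(signal + 16), for the 34 tested genes of the DNA replication list (left) and the 29 of the mitosis list (right), ordered by difference: blue circles are neuron induced and red triangles IFN-beta induced FoxA1Treg arrays, grey lines join the group means and the dotted line is the floor at 4. In every row the IFN-beta induced arrays lie to the left of the neuron induced arrays.

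Metabolic lists shifted less. Respiratory chain genes fell in 19 of 26 cases and rose in 4 (median -0.37), and 13 of the 26 had a confidence interval within 0.5. Atp5b, a subunit of the ATP synthase, was at 11.74, 11.76 and 11.72 against 11.11, 11.13 and 11.11, and Sdhc, a subunit of complex II, fell by 1.49, while Ndufa4 rose by 1.66. Cholesterol and lipid synthesis genes fell in 14 of 23 cases and rose in 3 (median -0.67). Sqle, an early oxygen-dependent enzyme of the pathway, fell by 1.02 and Scd2, a fatty acid desaturase, by 1.69. Its relative Scd1 went the other way, from 6.33, 6.25 and 5.51 to 10.68, 10.77 and 10.77. Glycolysis and hypoxia genes were split, with 9 rises and 13 falls of 25 (36% and 52%), beside 38.9% and 37.2% of all genes. Pkm, a pyruvate kinase, fell by 1.65 and Ldha, a lactate dehydrogenase, by 0.47, while the glucose transporter gene Slc2a1 rose by 0.55. Genes of the ATF4 amino acid programme were split, 10 rises and 15 falls of 28 (35.7% and 53.6%). Atf4 rose by 0.59, whereas Asns, an asparagine synthetase, and Psat1, an enzyme of serine synthesis, fell by 0.74 and 1.18, and the cystine transporter gene Slc7a11 rose by 2.87.

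Chaperones and the unfolded protein response of the endoplasmic reticulum rose in 17 of 22 cases and fell in 3 (median 0.47), with 16 rises and 5 falls under no normalization and 14 and 5 with the mean of probe sets. Xbp1, the factor of that response and of antibody secretion, was at 10.10, 10.16 and 10.20 in the neuron induced arrays and at 11.33, 11.39 and 11.32 in the IFN-beta induced arrays, and Pdia4, a disulfide isomerase, rose by 2.72. Lysosomal genes rose in 20 of 25 cases and fell in 4 (median 1.0), led by the cathepsin genes Ctsl (5.38) and Ctsh (4.87). Ctsd, another cathepsin, fell by 0.29. In the BCL2 family and cell death list 11 of 19 rose and 4 fell: Mcl1, a survival protein, rose by 1.10 and Bcl2 by 0.91, and so did the death-promoting Bcl2l11 (2.02) and Bmf (2.07), whose other probe set was called in the opposite direction. With no normalization 11 of the list rose and 7 fell. Bcl2l1 overlapped between the groups, with a confidence interval of -0.31 to 0.04.

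For 4475 of the 12721 genes (35.2%) the 95% confidence interval of the difference lay wholly within 0.5 log2 either way, a bound of 1.41-fold. Of these, 1758 were also called. The brightest of these genes were Eef1a1, a translation elongation factor, Tpt1, and the ribosomal protein genes Rpl13a, Rpl38, Rpl4, Rplp0, Rplp2, Rps10, Rps28 and Rps29. Rpl38 was at 13.58, 13.54 and 13.44 in the neuron induced arrays and at 13.38, 13.47 and 13.47 in the IFN-beta induced arrays, and Tpt1 at 13.96, 13.67 and 13.63 against 13.57, 13.55 and 13.63. Both overlapped between the groups. Of 17 ribosomal protein genes 16 met the bound, with 1 rise, 9 falls and a median of -0.12. That direction rests on the scaling, since centring each array on its median gave 8 rises, 6 falls and a median of 0.07. Most ribosomal protein genes were thus alike within the bound, with no settled direction.

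Probe sets of 1 gene did not always point the same way. Of 5683 genes with several probe sets past the filter, 970 (17.1%) had probe sets called in both directions, and for 38 of these both differences were at least 2-fold. Actb, which encodes beta-actin, had a probe set whose deposited log2 values were 13.13 to 13.34 in the IFN-beta induced arrays and 7.41 to 8.10 in the other 9 arrays of the series, while its second probe set was at 13.07 to 13.13 and at 13.33 to 13.47. The first probe set thus put the groups far apart where the second differed little. Klf3, a factor of resting lymphocytes, had a probe set higher by 5.56 on the normalized scale and another that fell by 1.34. The same split was seen in Bcl11a, a factor of B cells, by 5.24 and -1.01, in Ptprk, a receptor phosphatase, by 4.06 and -2.42, and in Rgl1 by 5.18 and -0.58. Each gene above is given by its brightest probe set, and the cause of the splits was not tested.

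**Figure D5:**
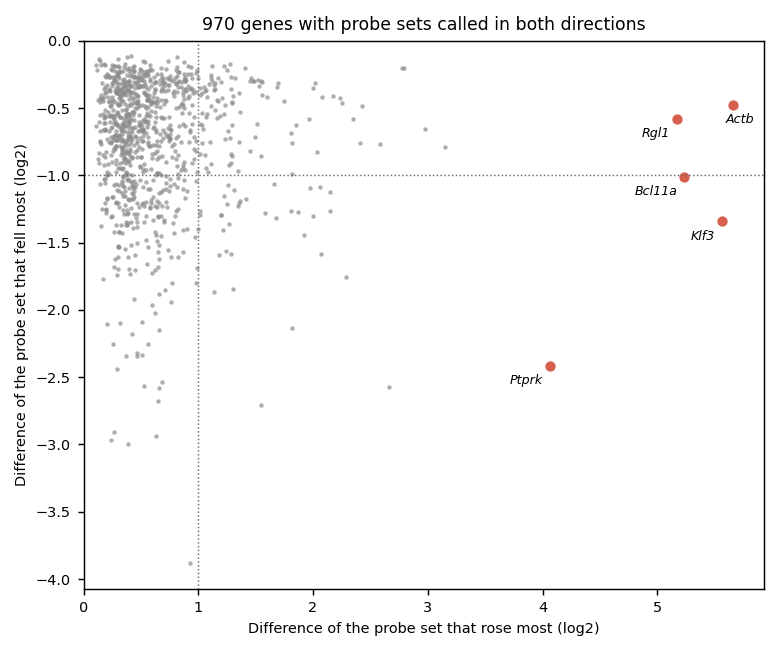
Each point is 1 of 970 genes with probe sets called in both directions, placed by the difference (IFN-beta induced minus neuron induced, log2) of the probe set that rose most on the horizontal axis and of the one that fell most on the vertical axis. Dotted lines mark 2-fold differences, and the 5 genes with the widest gaps, Klf3, Ptprk, Bcl11a, Actb and Rgl1, stand apart at rises of 4.06 to 5.66.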

How the data were processed

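Expression was measured on Affymetrix Mouse430_2 arrays. The authors' deposited values are log2 signals per probe set, and PLIER is named in the submitters' processing notes, with its version and its normalization not given in the sources used here. Of 45037 probe sets, 34945 carry 1 gene symbol in the platform annotation, 932 several and 9160 none, and only the first were named. The deposited log2 values were turned back into signals, 16 was added, and log2 values were quantile normalized over the 6 arrays. The upper 60% of probe sets by mean level were kept (above 5.08), and a gene was taken by its brightest probe set, which left 12721 genes. limma 3.58.1 in R 4.3.3 (lmFit and eBayes with an intensity trend) compared the groups. The limma fit alone was tried on simulated normal values, with far fewer and smaller changes than in these data. That trial did not cover the normalization, the filter or the choice of probe set. Members, lists and tests were chosen with earlier results of these data known. Named genes are 15 anchors, the 15 largest rises and falls, the first 3 members and up to 4 largest called rises and falls of each list, the 10 brightest genes with a bounded difference, and 5 genes with opposed probe sets, unless the text says that a gene was chosen after its values were seen. No label says that equal replicate numbers pair the samples, so the main fit had no block. Deviations from the group means correlated at -0.11, 0.0071 and -0.071 for equal numbers. With 3 arrays in each group these values cannot decide whether equal numbers share an animal, culture or day. Alternatives changed the normalization, offset, filter, probe set rule, variance model, samples and block.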

Additional observations from a re-analysis of the deposited data

How the results depend on the processing

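Of 6322 values of 356 named genes under the alternatives, 6211 kept their side of the threshold without a counted reversal, 75 lost and 21 gained a call, and 15 reversed. A change of sign was counted as reversed only where the main or the alternative fit called the gene. Genes called in neither fit may therefore have changed sign among the 6211. With the mean of a gene's probe sets, the reversed differences were 2.59 for Actb, 0.10 for Cd37, 0.32 for Cd47, 0.30 for H2-D1, 0.0089 for Rpl13a, 0.017 for Rps10 and 0.69 for Tlr3. Without normalization they were 0.050 for Rpl13a and 0.13 for Rps29. With median centring they were 0.13 for Rpl13a, 0.13 for Rpl38, 0.067 for Rps10, 0.20 for Rps29 and 0.12 for Tpt1, and without the offset -1.38 for Bcl11a, where another probe set is the brightest. The cause was not tested for the others. Foxp3 gave no value without normalization, with median centring, without the offset and without any single IFN-beta induced array, because it fell below the filter. The adhesion gene Vcam1 was higher by 3.09 but by 0.17 without the offset and by 0.091 to 0.14 without single IFN-beta induced arrays, none of them called.

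With an offset of 64, 897 genes were at least 2-fold lower. Over all 22534 probe sets kept, 16910 were called (8024 higher, 8886 lower), 5197 of them at least 2-fold (2450 higher, 2747 lower), since more features were counted. With a bound of 0.25 in place of 0.5, 996 genes were alike. Leaving out 1 array gave 9109 to 9551 calls, 4565 to 5027 higher and 4402 to 4725 lower, and 2911 to 2968 at least 2-fold, 1463 to 1586 higher and 1338 to 1469 lower. With the replicate block 9442 genes were called, 4809 higher and 4633 lower, and 2920 at least 2-fold, but no label says that the numbers pair the samples. Medians of the fibroblast and endothelium, CD8 T and NK cell, integrin, chemokine receptor, GIMAP, microglia, inhibitory receptor, TNF receptor, sex-linked and ribosomal lists changed sign under at least 1 of 4 scalings or summaries. Dim genes near the floor are limited by signal over background.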
